A study of Mus musculus with 27 samples.

Results

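The genes described here encode the proteins of the mitochondrial ribosome. They were taken from the count table by symbol: every gene named Mrps or Mrpl followed by a number and, in some, a letter, with pseudogene symbols left out. This gave 77 genes of 37095 symbols. RNA was sequenced from 27 mouse libraries: in each of skull (the skullcap), meninges (scraped from the skullcap) and brain, there were 3 libraries of untreated controls, 3 taken 0.5 h after and 3 taken 24 h after UVB light (311 nm, 2 mW) was directed at the interparietal bone, at the back of the skullcap. The series concerns cranial light, immunity at brain borders and recovery from stroke; no library used here is labelled with stroke, and the irradiation away from the cranium that the design text names was not analysed here. The labels give no strain, age, sex or clock time of collection, and leave unsaid how controls were handled and whether the 3 libraries of a group were separate animals. Each p-value therefore measures only the spread between these samples.

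Mitochondria carry their own ribosome, which translates the few messenger RNAs of the mitochondrial genome, all of which encode subunits of the respiratory chain and the ATP synthase. Its proteins are encoded in the nucleus, made in the cytosol and imported, so the transcripts counted here are cytosolic. In structures of the human and porcine mitoribosome, some proteins are homologs of bacterial ribosomal proteins and others are found in mitochondria only. Of the 77 genes, 16 encode small-subunit proteins with a bacterial homolog, 10 small-subunit proteins specific to mitochondria, 30 large-subunit proteins with a bacterial homolog and 20 large-subunit proteins specific to mitochondria. Despite their names, Mrps30 and Mrps18a belong to the large subunit. The last gene, Mrps36, encodes a protein now assigned to the 2-oxoglutarate dehydrogenase complex and not to the ribosome.

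The promoters of these genes are known for binding sites of NRF1, of the ETS factor GABPA and of YY1, so windows of 150 bases that end at the base before the RefSeq start (GRCm38.p6) are shown for 3 genes higher in skull at 24 h with a match, 1 such gene without a match and 1 gene that differed between untreated tissues. Capitals mark an exact match on either strand to CGCATGCGC (NRF1), CCGGAAGT (ETS) or AAGATGGCG (YY1).
Mrpl17 (chr7:105811088-105811237, minus strand): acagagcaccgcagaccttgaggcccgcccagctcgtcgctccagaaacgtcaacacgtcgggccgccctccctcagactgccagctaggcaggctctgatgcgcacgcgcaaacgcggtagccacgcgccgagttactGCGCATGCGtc
Mrpl10 (chr11:97041432-97041581, plus strand): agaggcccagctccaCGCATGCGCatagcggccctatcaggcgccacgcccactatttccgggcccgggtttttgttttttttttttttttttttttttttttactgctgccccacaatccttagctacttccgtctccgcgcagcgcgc
Mrpl51 (chr6:125192050-125192199, plus strand): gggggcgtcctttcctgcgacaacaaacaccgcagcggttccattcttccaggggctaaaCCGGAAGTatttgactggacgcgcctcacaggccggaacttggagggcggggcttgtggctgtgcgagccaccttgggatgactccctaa
Mrps2 (chr2:28467916-28468065, plus strand): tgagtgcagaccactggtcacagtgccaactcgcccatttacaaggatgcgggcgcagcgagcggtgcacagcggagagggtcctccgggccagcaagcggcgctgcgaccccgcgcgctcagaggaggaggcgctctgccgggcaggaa
Mrpl3 (chr9:105053118-105053267, plus strand): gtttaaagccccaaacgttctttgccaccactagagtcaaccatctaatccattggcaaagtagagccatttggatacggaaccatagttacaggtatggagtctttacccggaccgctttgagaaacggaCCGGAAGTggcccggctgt

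The table held a window (250 bases before to 50 after the start) for 68 of the 77 genes. In these windows, 7 genes (10.3%) held the NRF1 letters, against 3.27% of the 12185 genes tested in skull that have a window. The ETS letters stood in 11 genes (16.2%, against 7.3%) and the YY1 letters in 8 genes (11.8%, against 2.77%). At least 1 of the 3 was found in 25 genes (36.8%), against 12.6% of the genes tested in skull and 6.95% of all 27025 promoters of the table. Of the 18 genes with a window that were called higher in skull at 24 h against control or against 0.5 h, 5 (27.8%) held a match, and of the other 50 genes 20 did (40%). The pooled share was thus lower in the called genes, but the motifs did not all go that way. The NRF1 letters stood in 16.7% of the called genes, against 8% of the others. For ETS the shares were 11.1% and 18%, and for YY1 0% and 16%. The differences were not tested. A match describes letters in the window and is neither a mapped site nor a cause.

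Libraries held 14.2 M to 18.2 M counts, apart from brain control 1 with 27.3 M. No gene of the 77 was at 0 in any library, the lowest count being 11, and all 77 passed the filter on low counts in every fit. Neuron and erythroid markers fitted the labelled tissues. Neuron markers summed to 16.2 to 20.1 CPM (counts scaled to library size) in untreated skull. Their sums were 363 to 636 CPM in untreated meninges and 5348 to 5694 CPM in untreated brain. Erythroid markers summed to 4707 to 5244 CPM in untreated skull, against 27.1 to 47.4 CPM in untreated brain. Meningeal fibroblast markers summed to 49700 to 79780 CPM in untreated skull, against 20450 to 34750 CPM in untreated meninges. Of these 5 markers, 3 were called lower in skull than in meninges and 1 higher. Pineal markers summed to 1014 to 1295 CPM in untreated meninges, where 5 of 5 osteoblast markers were higher than in brain. Skeletal muscle markers stood at 3621 CPM in meninges control 2, against 23.8 and 15.5 CPM in controls 1 and 3. Choroid plexus markers summed to between 356 and 6586 CPM in the 3 untreated meninges libraries, a wider spread than in the other tissues. Levels of the 77 genes below are CPM on totals scaled by TMM over the 27 libraries.

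On TMM-scaled totals, the mean summed level of the 77 genes was highest in skull at 24 h. On plain totals, which give the share of counts, meninges at 24 h stood at 1952, 1715 and 1690 CPM. Skull at 24 h then had 1728, 1611 and 1707 CPM, against 1413, 1482 and 1312 CPM in control skull. The values that follow are on TMM-scaled totals. The summed level was 1593 ± 21.9 CPM in control skull, 1500 ± 27.96 CPM at 0.5 h and 1783 ± 57.8 CPM at 24 h (SD, n = 3 each). The 24 h skull libraries lay between 1718 and 1828 CPM, all above the control libraries (1574 to 1617 CPM) and the 0.5 h libraries (1483 to 1532 CPM). In meninges the sum was 1521 ± 99.3 CPM in controls, 1454 ± 28.7 CPM at 0.5 h and 1589 ± 71.3 CPM at 24 h. In brain it was 1615 ± 83.3 CPM in controls, 1590 ± 22.0 CPM at 0.5 h and 1513 ± 71.2 CPM at 24 h. In meninges and in brain the 24 h libraries overlapped the controls.

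**Figure D1:**
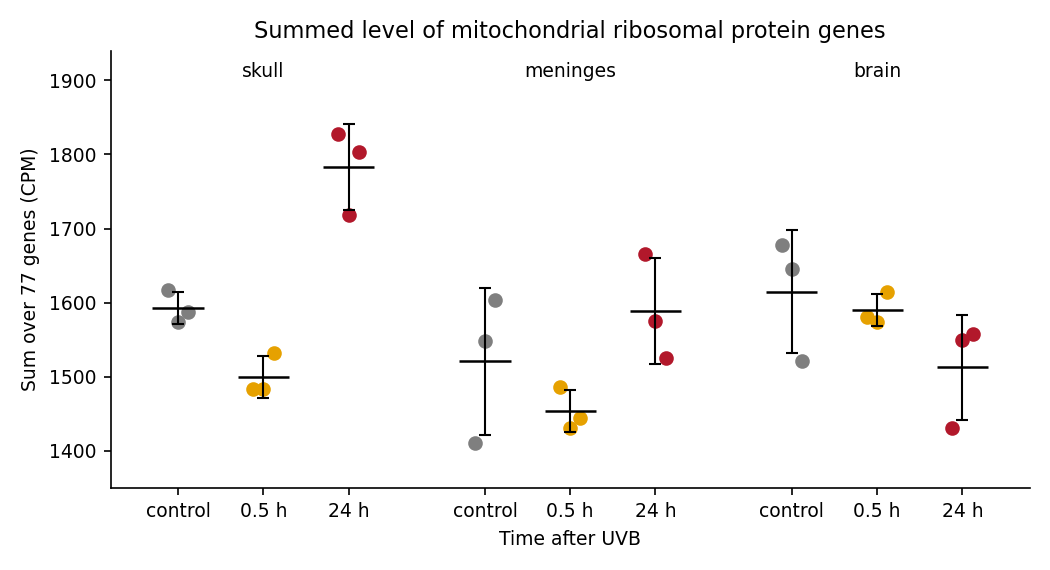
Summed level of the 77 genes (CPM, vertical axis, which does not start at 0) in each library by tissue and time; points are libraries, lines the mean and error bars the SD. The 3 skull libraries at 24 h (1718 to 1828 CPM) lie above every other skull library, while in meninges and brain the control libraries overlap both later times.

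Per length of transcript, the genes spanned a wide range. Averaged over the 27 libraries, the highest were Mrpl42 with 44.9 CPM per kb, Mrps21 with 41.8, Mrpl52 with 40.4 and Mrpl20 with 37.9 CPM per kb. The lowest were Mrps30 with 3.09 CPM per kb, Mrpl47 with 2.97, Mrpl43 with 2.68 and Mrps18c with 2.59 CPM per kb. These levels depend on the transcript chosen to stand for each gene, and 32 of the 77 genes share exon bases with another gene, 27 of them with one on the opposite strand. Whether the counting used strand is not given in the sources used here, so reads over shared exons could have been counted for either gene; 33.4% of the exon bases of Mrpl43 are shared with Twnk.

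In skull at 24 h, 12 of the 77 genes (15.6%) were higher than in control skull and 1 was lower (edgeR quasi-likelihood F test, Benjamini-Hochberg adjusted p under 0.05 over all 17426 genes tested). Among all genes tested, 10.6% were called higher and 10.4% lower, so the share of genes called higher was not far above the background, and the share called lower was under it. The estimates leaned upward: 59 were above 0 and 18 below, with a median log2 fold change of 0.16, while of all genes tested 8685 were above 0 and 8741 below. Of 26 small-subunit genes 3 were higher (11.54%, median 0.14), a share near the background, and of 50 large-subunit genes 9 were higher (18%) and 1 lower (median 0.18). Of genes with a bacterial homolog, 7 of 46 were higher, and of the mitochondria-specific genes 5 of 30 were higher and 1 lower. Since these are bulk tissues, fewer cells of a type and less RNA per cell cannot be told apart. For the called genes below, the separation of libraries comes from the same counts as the call and is no further support.

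Mrpl17, whose bacterial homolog lines the exit of the peptide tunnel (gene at chr7:105803206-105811099 in GRCm38), had the smallest p. Its level was 38.1, 35.7 and 36.9 CPM in control skull, 34.1, 34.5 and 32.1 CPM at 0.5 h, and 52.8, 50.5 and 51.6 CPM at 24 h. The 24 h libraries were all above the other 6. The log2 fold change at 24 h against control was 0.49 ± 0.09 (SE; adjusted p = 0.00208, edgeR).

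Mrps2, a small-subunit protein with a bacterial homolog, was measured at 17.2, 15.5 and 16.3 CPM in control skull, 18.8, 17.3 and 17.8 CPM at 0.5 h, and 23.8, 23.5 and 27.9 CPM at 24 h. It too was higher in every 24 h library than in any earlier one, by 0.62 ± 0.12 against control on the log2 scale (adjusted p = 0.00385, edgeR). Mrpl49, a large-subunit protein specific to mitochondria, was at 20.1, 18.9 and 19.6 CPM in control skull, 22.1, 24.5 and 24.0 CPM at 0.5 h, and 27.7, 30.6 and 27.2 CPM at 24 h. Here the 3 times did not overlap and the 0.5 h libraries stood between the others. Its log2 fold change at 24 h was 0.55 ± 0.10 (adjusted p = 0.00336, edgeR). Mrpl49 shares 4.85% of its exon bases with Syvn1 on the opposite strand, which was itself lower by an estimate of -0.31.

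The gene with the highest estimate was Mrpl14 (chr17:45686322-45698495), whose product lies on the face of the large subunit that meets the small one and, in human mitoribosome precursors, contacts the assembly factor MALSU1. It had 7.12, 6.498 and 5.38 CPM in control skull, 9.23, 7.42 and 8.499 CPM at 0.5 h, and 10.96, 11.9 and 10.9 CPM at 24 h. No 2 of the 3 times overlapped. Its log2 fold change at 24 h was 0.83 ± 0.17 (adjusted p = 0.00488, edgeR), a fold of 1.78. Of its exon bases, 11.2% are shared with Tmem63b on the opposite strand, for which the estimate was -0.03.

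Mrpl10 and Mrpl12, proteins of the stalk, the flexible arm that draws translation factors to the ribosome, were called. Mrpl10, the base of the stalk, was at 24.7, 23.9 and 22.7 CPM in control skull, 30.1, 28.3 and 27.6 CPM at 0.5 h, and 37.0, 34.0 and 30.5 CPM at 24 h. The lowest 24 h library was just above the highest at 0.5 h, and all were above the controls (log2 fold change 0.52 ± 0.10, adjusted p = 0.00505, edgeR). Mrpl12, the multi-copy arm, was at 38.7, 40.2 and 41.6 CPM in control skull, 37.2, 32.1 and 33.1 CPM at 0.5 h, and 53.7, 46.6 and 52.9 CPM at 24 h. It was therefore lowest at 0.5 h, where Mrpl10 was above its controls. Its change at 24 h against control, 0.35 ± 0.10 (adjusted p = 0.0235, edgeR), was lost when any of 4 of the 9 skull libraries was left out (adjusted p up to 0.0886). Mrpl10 shares 14.1% of its exon bases with Gm11574 and Mrpl12 13.1% with Gm16755, both on the opposite strand.

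Mrpl47, which in bacteria has a homolog at the tunnel exit, was at 7.18, 6.68 and 6.27 CPM in control skull, 8.39, 9.19 and 8.26 CPM at 0.5 h, and 12.2, 11.3 and 9.51 CPM at 24 h. Mrpl51, specific to the mitochondrial large subunit, was at 24.8, 29.4 and 26.4 CPM in control skull, 25.5, 30.6 and 29.2 CPM at 0.5 h, and 35.9, 35.4 and 39.7 CPM at 24 h. In both genes every 24 h library was above every control, with log2 fold changes of 0.72 ± 0.16 for Mrpl47 and 0.47 ± 0.11 for Mrpl51 (adjusted p = 0.00895 and 0.0112, edgeR). Mrpl47 shares exon bases with Ndufb5 and Actl6a, whose estimates were -0.07 and 0.04.

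Of the small-subunit genes specific to mitochondria, Mrps25 and Mrps18b were called. Mrps25 was at 16.8, 15.3 and 13.1 CPM in control skull, 14.8, 15.7 and 14.9 CPM at 0.5 h, and 22.0, 20.9 and 23.4 CPM at 24 h, so control and 0.5 h overlapped and 24 h stood above both. Its log2 fold change was 0.55 ± 0.13 (adjusted p = 0.00987, edgeR). As 69.8% of its exon bases are shared with Nr2c2 on the opposite strand, its counts are uncertain; Nr2c2 itself had an estimate of 0.10. Mrps18b, related in sequence to Mrps18a and Mrps18c, of which Mrps18c is the one counted here with the bacterial homologs, was at 8.09, 7.18 and 7.17 CPM in control skull, 7.16, 7.99 and 7.61 CPM at 0.5 h, and 11.6, 12.2 and 10.2 CPM at 24 h. Again only the 24 h libraries stood apart (log2 fold change 0.61 ± 0.15, adjusted p = 0.016, edgeR), and 30.5% of its exon bases are shared with the antisense gene Gm16279. Its paralogs were not called: the estimates were 0.16 ± 0.13 for Mrps18a and 0.14 ± 0.41 for Mrps18c, which had 12 to 48 counts in a skull library.

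Mrpl58, derived from a bacterial release factor and able in human cells to free peptides from stalled ribosomes, was at 11.6, 10.03 and 11.8 CPM in control skull, 14.1, 12.9 and 12.4 CPM at 0.5 h, and 18.2, 15.4 and 14.8 CPM at 24 h. Mrpl15, a homolog of a bacterial large-subunit protein, was at 23.2, 22.4 and 21.1 CPM in control skull, 22.3, 22.3 and 26.1 CPM at 0.5 h, and 27.3, 27.1 and 28.8 CPM at 24 h. Both were called with all 24 h libraries above the controls: 0.55 ± 0.14 for Mrpl58 and 0.33 ± 0.10 for Mrpl15 (adjusted p = 0.0188 and 0.0433, edgeR). Mrpl15 had the highest adjusted p of the 12 and lost its call under 4 of 6 alternatives (adjusted p up to 0.121). Leaving out a library ended the call of Mrpl15 in 8 of 9 cases (adjusted p up to 0.132), of Mrpl58 in 2 (up to 0.0828) and of Mrps18b in 2 (up to 0.0518).

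The 1 gene called lower was Mrps30 (chr13:118378381-118387252), a large-subunit protein specific to mitochondria. It was at 12.6, 15.8 and 11.8 CPM in control skull, 9.68, 11.03 and 11.7 CPM at 0.5 h, and 9.98, 6.82 and 8.34 CPM at 24 h. All 24 h libraries were below the controls, with 1 inside the 0.5 h range. The log2 fold change of -0.67 ± 0.18 (adjusted p = 0.0208, edgeR) lost its call without control 2, without 24 h library 2 or without 24 h library 3 (adjusted p up to 0.0802). Mrps30 shares 9.35% of its exon bases with B430218F22Rik on the opposite strand. Mrpl10, Mrpl14, Mrpl17, Mrpl47, Mrpl49, Mrpl51, Mrps2 and Mrps25 kept their calls without each of the 9 skull libraries in turn.

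**Figure D2:**
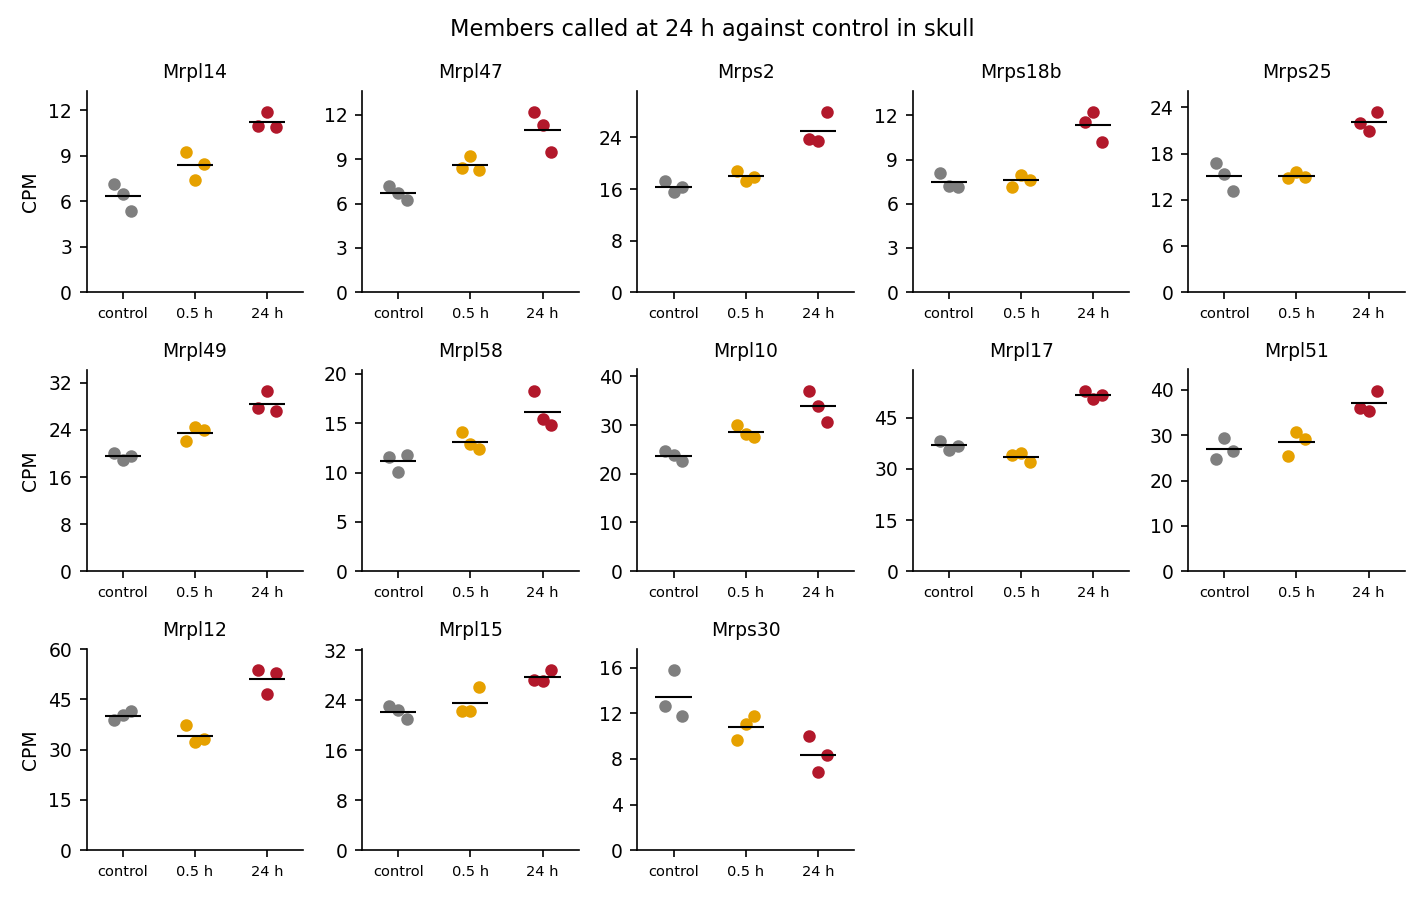
Level (CPM, from 0) in each skull library of the 13 genes called at 24 h against control, by time; points are libraries and lines means. In 12 genes the 24 h points lie above all controls and in Mrps30 below them, while the 0.5 h points lie between in some (Mrpl14, Mrpl49) and at or under control in others (Mrpl17, Mrpl12). The genes were picked by their call on these same libraries.

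Among other members, Mrpl50 (0.47 ± 0.16, adjusted p = 0.0596) and Mrpl52 (0.37 ± 0.13, adjusted p = 0.0587) missed the threshold in edgeR's test at 24 h. Mrps36, outside the ribosome, had an estimate of 0.37 ± 0.20, and Mrps6 of 0.72 ± 0.31 on 24 to 72 counts in a library. For Mrps12 and Mrps7, which help to form the decoding region of the small subunit, the estimates were both 0.14, with SEs of 0.15 and 0.12. Mrpl37 had -0.07 ± 0.10.

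Against 0.5 h instead of control, skull at 24 h had 14 genes (18.2%) higher and 0 lower, where 8.39% of all genes tested were higher and 7.74% lower (edgeR, adjusted p under 0.05; 37 of the 77 had an unadjusted p under 0.05, and DESeq2 called 15 higher and 0 lower). The median of the 77 estimates was 0.25 and 69 of them were above 0. This comparison shares its 24 h libraries with the one above. The largest changes among those called were in Mrpl17 (0.63 ± 0.09, adjusted p = 0.000725), Mrpl12 (0.59 ± 0.10, adjusted p = 0.00226), Mrps18b (0.59 ± 0.15) and Mrpl16, a protein near the catalytic centre of the large subunit (0.57 ± 0.13). Mrpl16 was at 17.0, 16.6 and 17.99 CPM in control skull, 12.1, 12.7 and 16.2 CPM at 0.5 h, and 19.5, 19.2 and 21.6 CPM at 24 h. Its 0.5 h libraries were the lowest and its 24 h libraries the highest, with no overlap.

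Mrpl30, a large-subunit protein with a bacterial homolog, was at 31.2, 33.7 and 31.4 CPM in control skull, 27.3, 24.7 and 28.3 CPM at 0.5 h, and 36.9, 33.6 and 38.8 CPM at 24 h (0.46 ± 0.10 for 24 h against 0.5 h, adjusted p = 0.00982, edgeR). Its 0.5 h libraries were below all others, and 24 h overlapped control. The rest of the 14 were Mrps25 (0.56), Mrpl52 (0.54), Mrpl55 (0.54), Mrps2 (0.49), Mrpl20 (0.48), Mrpl19 (0.48), Mrps14 (0.42), Mrpl51 (0.39) and Mrpl28 (0.36). Of these, Mrps14, Mrpl28, Mrpl19 and Mrpl55 lost the call under 1 to 4 of the 6 alternatives (adjusted p up to 0.0993). The count of 14 leans on single libraries: it was 7, 9 and 7 without 0.5 h library 1, 2 and 3, and 7 and 4 without 24 h library 1 and 3. Calls that stood without each skull library in turn were those of Mrpl12, Mrpl17 and Mrpl30.

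At 0.5 h against control no gene of the 77 was called in skull, where 4.9% of all genes were (edgeR; 20 had an unadjusted p under 0.05, and DESeq2 called 2 lower). Estimates leaned downward, 51 below 0 and 26 above, with a median of -0.11, against 0.00 over all genes tested. The smallest p belonged to Mrps26, a small-subunit protein specific to mitochondria, at 25.6, 23.4 and 24.7 CPM at 0.5 h, against 31.4, 35.0 and 30.2 CPM in control skull. Its libraries did not overlap, but the change of -0.40 ± 0.11 stood just outside the threshold (adjusted p = 0.0511, edgeR). Next came Mrps11 (-0.63 ± 0.18, adjusted p = 0.0643), Mrpl13 (-0.32 ± 0.10, adjusted p = 0.0775) and Mrpl54 (-0.36 ± 0.12, adjusted p = 0.0987).

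In meninges no gene of the 77 was called at 24 h against control, although 8.42% of all genes tested were (edgeR; 11 had an unadjusted p under 0.05, and DESeq2 called 1 higher and 1 lower). As in skull most estimates were above 0, 62 of 77, with a median of 0.09, against 0.02 over all genes tested. Mrpl57, specific to the mitochondrial large subunit, was at 16.5, 16.2 and 17.4 CPM at 24 h, against 11.4, 12.2 and 14.1 CPM in control meninges. All 24 h libraries were above the controls, with a log2 fold change of 0.43 ± 0.12 (adjusted p = 0.0531, edgeR). Mrpl41 had -0.38 ± 0.11 (adjusted p = 0.0676), Mrps22 0.52 ± 0.17 (adjusted p = 0.0813) and Mrpl1 0.43 ± 0.15 (adjusted p = 0.103). At 0.5 h no gene was called, as against 0.874% of all genes (edgeR; 7 with an unadjusted p under 0.05, and 1 called lower by DESeq2). The 4 smallest p-values were for Mrps16 (-0.40 ± 0.11), Mrpl27 (-0.36 ± 0.13), Mrpl52 (-0.32 ± 0.12) and Mrpl57 (0.31 ± 0.12), with adjusted p between 0.119 and 0.283.

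Only at 24 h against 0.5 h was a gene called in meninges: Mrpl52, a large-subunit protein specific to mitochondria, was higher, where 1.07% of all genes were higher and 1.27% lower. It was at 14.7, 18.5 and 17.2 CPM in control meninges, 14.1, 13.1 and 12.6 CPM at 0.5 h, and 19.4, 20.3 and 20.6 CPM at 24 h. The 24 h libraries were above both earlier groups. The log2 fold change of 0.60 ± 0.12 (adjusted p = 0.0305, edgeR) lost its call when any 1 of the 6 libraries compared was left out. Antigen-presenting cell markers summed to 761 to 846 CPM at 24 h, against 1363 to 1463 CPM at 0.5 h in meninges, with 4 of 5 lower (4 of 5 also against control); of the fibroblast, erythroid and pineal markers, 1 of 5 each was lower. Choroid plexus markers ran from 462 to 15390 CPM at 24 h, against 3694 to 5082 CPM at 0.5 h, and skeletal muscle markers from 5.69 to 58.9 CPM at 24 h, against 26.3 to 1949 CPM at 0.5 h, so single libraries stood apart. The part of these markers in the change of Mrpl52 was not tested. Mrps16, Mrpl17 and Mrps15 followed without being called, at 0.35 ± 0.11, 0.24 ± 0.08 and 0.31 ± 0.11.

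In brain no gene of the 77 was called in any of the 3 comparisons (edgeR). Of all genes tested, 2.62% were called at 24 h against control, 0.0055% at 0.5 h and 0.22% at 24 h against 0.5 h. Unadjusted p-values under 0.05 numbered 13, 4 and 6, and DESeq2 called 2 genes lower at 24 h against control and 0 in the others. At 24 h the estimates leaned the other way from skull and meninges: 57 were below 0 and 20 above, with a median of -0.11. Of all genes tested in brain, 9179 were below 0 and 8993 above. Brain control 1 stood apart from controls 2 and 3 in several marker lists. Antigen-presenting cell markers summed to 68.7, 11.27 and 12.09 CPM in the 3 controls, and markers of dividing cells to 44.17, 13.55 and 14.57 CPM. Choroid plexus markers summed to 213.2, 620.1 and 580.6 CPM in these controls, and skin markers to 11.35, 4.625 and 5.02 CPM. At 24 h against control, 2 of 4 dividing-cell markers tested were lower, and 0 of 5 antigen-presenting cell markers were called. The part of these markers in the estimates was not tested.

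Mrps23, specific to the mitochondrial small subunit, was at 21.3, 20.0 and 25.5 CPM at 24 h, against 29.9, 33.5 and 26.2 CPM in control brain, and Mrps10, a small-subunit protein with a bacterial homolog, was at 23.5, 22.2 and 21.7 CPM at 24 h, against 17.8, 17.4 and 16.7 CPM in control brain. In neither did the groups overlap, but the log2 fold changes of -0.43 ± 0.13 for Mrps23 and 0.37 ± 0.12 for Mrps10 were not called (adjusted p = 0.0771 and 0.0931, edgeR). Mrps21 had -0.57 ± 0.17 and Mrpl33 0.67 ± 0.23. At 0.5 h the smallest p-values were for Mrpl33 (0.60 ± 0.23), Mrps6 (-0.57 ± 0.27), Mrps23 (-0.26 ± 0.12) and Mrpl27 (-0.34 ± 0.16), with adjusted p of 0.902 and 0.938. At 24 h against 0.5 h they were for Mrpl42 (-0.42 ± 0.13), Mrps31 (0.38 ± 0.15), Mrps12 (-0.39 ± 0.16) and Mrpl4 (-0.31 ± 0.13).

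**Figure D3:**
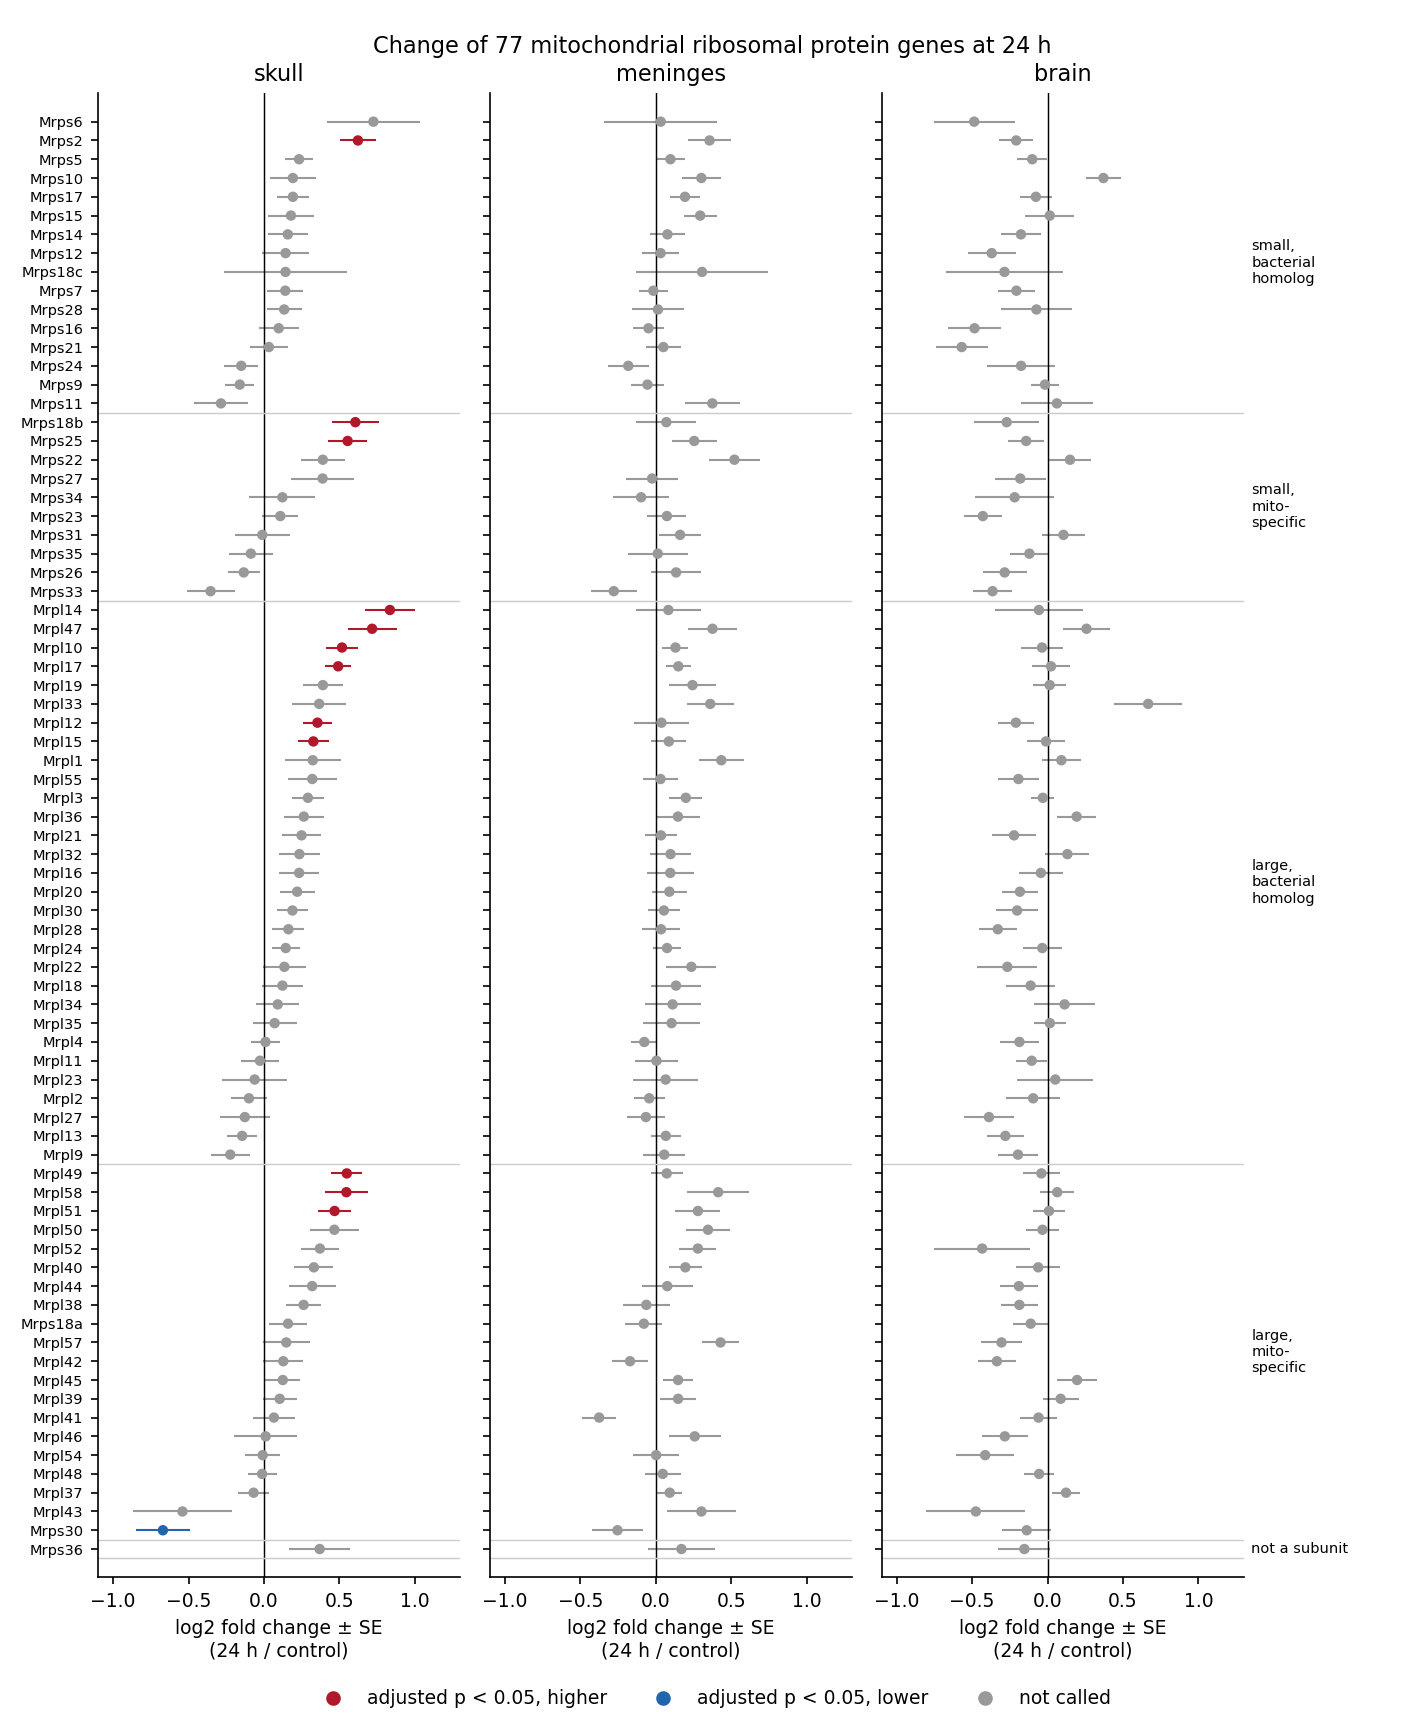
Log2 fold change at 24 h against control (horizontal axis, ± SE) of the 77 genes in skull, meninges and brain, grouped by subunit and ancestry and ordered by the value in skull. Called genes are coloured: 13 in skull (12 higher, 1 lower) and none in meninges or brain, where estimates lie mostly above 0 in meninges and mostly below 0 in brain.

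The effect at 24 h differed between skull and brain for 6 of the 77 genes, all more positive in skull, in a test of the difference itself over all 27 libraries (edgeR; 3.33% of 21500 genes differed upward and 3.39% downward). The difference was 0.87 ± 0.26 for Mrps18b (adjusted p = 0.0459), 0.82 ± 0.16 for Mrps2 (adjusted p = 0.00278), 0.69 ± 0.18 for Mrps25 (adjusted p = 0.0206), 0.58 ± 0.15 for Mrpl49 (adjusted p = 0.0203), 0.54 ± 0.16 for Mrpl10 (adjusted p = 0.0456) and 0.46 ± 0.13 for Mrpl17 (adjusted p = 0.0357). In brain, Mrps2 was at 20.2, 21.6 and 23.9 CPM at 24 h, against 25.3, 24.9 and 25.4 CPM in controls, so its 24 h libraries were all lower, without a call in that tissue. By comparison, Mrpl17 was at 19.2, 26.8 and 25.3 CPM in brain at 24 h, against 24.8, 21.7 and 23.4 CPM in control brain, and the groups overlapped. The count of 6 was 3 without brain control 1, without any 1 of the 3 skull controls, or without skull 24 h library 1 or 3. The call of Mrps2 stood without each of the 27 libraries in turn, whereas Mrpl49 lost it in 2 cases, Mrps25 in 3, Mrpl17 in 8 (adjusted p up to 0.0990), Mrps18b in 19 (up to 0.111) and Mrpl10 in 20 (up to 0.127). Without the filter on low counts Mrps18b and Mrpl17 were not called, and with a correction for GC content and length Mrps18b was not.

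No gene's 24 h effect differed between skull and meninges, where 0.633% of all genes did, or between meninges and brain, where 1.32% did (edgeR). Unadjusted p-values under 0.05 numbered 7 and 8, and DESeq2 called 0 and 2 genes, the 2 being higher in meninges minus brain. The smallest p between skull and meninges was that of Mrpl49 (0.49 ± 0.15, adjusted p = 0.151), followed by Mrpl17 (0.36 ± 0.13) and Mrpl41 (0.46 ± 0.18). Between meninges and brain it was that of Mrpl57 (0.70 ± 0.20, adjusted p = 0.0836), followed by Mrps2 (0.54 ± 0.16) and Mrps21 (0.59 ± 0.21). So the skull changes described above were not shown to differ from those in meninges.

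For the 0.5 h effect, none of the 77 genes differed between tissues (edgeR and DESeq2, 0 called each). All-gene shares were 0.209% for skull minus brain and 0.0093% for skull minus meninges and for meninges minus brain. Unadjusted p-values under 0.05 numbered 2, 3 and 2. The smallest were those of Mrps10 (-0.50 ± 0.18, skull minus brain), Mrpl14 (0.88 ± 0.34, skull minus meninges) and Mrpl33 (-0.62 ± 0.26, meninges minus brain).

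Several marker lists moved with the skull comparison at 24 h, and their part in the changes of the 77 genes was not tested. Antigen-presenting cell markers summed to 457 to 484 CPM at 24 h, against 641 to 1025 CPM in control skull, with 4 of 5 markers lower. Erythroid markers summed to 2908 to 4426 CPM at 24 h, against 4707 to 5244 CPM in controls, with 3 of 5 lower. Neutrophil markers overlapped between the groups, at 3077 to 4851 CPM at 24 h and 3533 to 7649 CPM in controls, with 1 of 5 lower. Osteoblast markers were at 3616 to 3858 CPM at 24 h, within the 2744 to 4157 CPM of controls, though 3 of 5 were called higher and 2 lower. Meningeal fibroblast markers had 2 of 5 lower, with sums of 54910 to 68450 CPM at 24 h, within the 49700 to 79780 CPM of controls. Neuron markers summed to 28.4 to 36.6 CPM at 24 h, against 16.2 to 20.1 CPM in controls, with 1 of 5 higher. The median log2 fold change of the 5 was -0.46, so the higher sum does not describe most of them. Markers of dividing cells were at 541 to 845 CPM at 24 h and 466 to 735 CPM in controls, with 1 of 5 higher. No marker of these lists was at 0 in all libraries of either group. Against 0.5 h, erythroid markers were at 2908 to 4426 CPM at 24 h and 5114 to 8174 CPM at 0.5 h, with 5 of 5 lower, and antigen-presenting cell markers at 457 to 484 CPM at 24 h and 635 to 956 CPM at 0.5 h, with 4 of 5 lower; 2 of 5 fibroblast markers were lower and 2 of 5 osteoblast markers higher.

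Genes that work with the mitochondrial ribosome did not all follow it in skull at 24 h. The shares called in the lists that follow are to be read against 10.6% of all genes tested called higher and 10.4% lower, and most were near them. Of 25 assembly genes, 4 were higher (16%) and 2 lower (8%; median 0.02, edgeR throughout). Higher were the rRNA methyltransferases Mrm2 (0.92 ± 0.23) and Nsun4 (0.67 ± 0.16), the GTPase Mtg2 (0.66 ± 0.14) and the endoribonuclease Ybey (1.05 ± 0.30). Lower were Malsu1 (-0.73 ± 0.13), the assembly factor that in human cells binds the product of the gene Mrpl14, and Lars2 (-0.38 ± 0.10), the mitochondrial leucyl-tRNA synthetase. Thus Malsu1 was lower where Mrpl14 was higher; in meninges at 24 h Malsu1 was lower too (-0.84 ± 0.17), with Mrpl14 not called.

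Of 17 translation factors tested, 2 were higher (11.8%) and 0 lower (5 with an unadjusted p under 0.05; median 0.21): Gfm1, an elongation factor (0.38 ± 0.11), and Taco1, an activator of translation (0.86 ± 0.24). Of 20 genes that charge mitochondrial transfer RNAs, 15% were higher and 10% lower: 3 were higher (Mars2, 0.98 ± 0.16; Pars2, 0.81 ± 0.23; Qrsl1, 0.56 ± 0.15) and 2 lower (Fars2, -0.54 ± 0.14, and Lars2). Lars2 and Yars2 stand both in this list and in that of assembly genes, so the lower call of Lars2 is counted in each. The 5 mitoribosome genes with other names (Dap3, Ptcd3, Chchd1, Aurkaip1 and Gadd45gip1) had 0 called (1 with an unadjusted p under 0.05) and a median of 0.16, the same as the 77 genes.

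Among 19 regulators of mitochondrial gene expression and biogenesis, 3 were higher (15.8%) and 2 lower (10.5%). Pprc1, a coactivator related to PGC-1, was higher in skull (1.01 ± 0.09) and also in meninges at 24 h (1.19 ± 0.14). Polrmt, the mitochondrial RNA polymerase, was higher in skull by 0.54 ± 0.14, and Twnk, the helicase of the mitochondrial genome, by 0.49 ± 0.12. Nrf1 was lower by an estimate of -0.33 ± 0.10, and so was Myc (-1.13 ± 0.10), a transcription factor known to raise ribosomal gene expression. The 11 mitochondrially encoded mRNAs tested, the templates of this ribosome, had 0 called (2 with an unadjusted p under 0.05) and a median of -0.13, on the other side of 0 from the 77 genes.

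Beside the 77 genes stand the 85 genes of the cytosolic ribosome, which translates the products of nuclear genes. In skull at 0.5 h against control, 23 of 85 cytosolic genes were lower (median -0.30), where 4.9% of all genes were called in either direction. At 24 h against 0.5 h 29 were higher (median 0.25, as in the 77 genes), where 8.39% of all genes were. At 24 h against control the cytosolic genes were near 0 (3 higher, 6 lower, median -0.04), while the median of the mitochondrial genes was 0.16. Those 2 counts were under the all-gene shares of 10.6% higher and 10.4% lower. In brain at 24 h against control, 4 of 80 cytosolic genes tested were lower (5%, median -0.44), where 1.42% of all genes were. The difference between the lists was not tested.

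**Figure D4:**
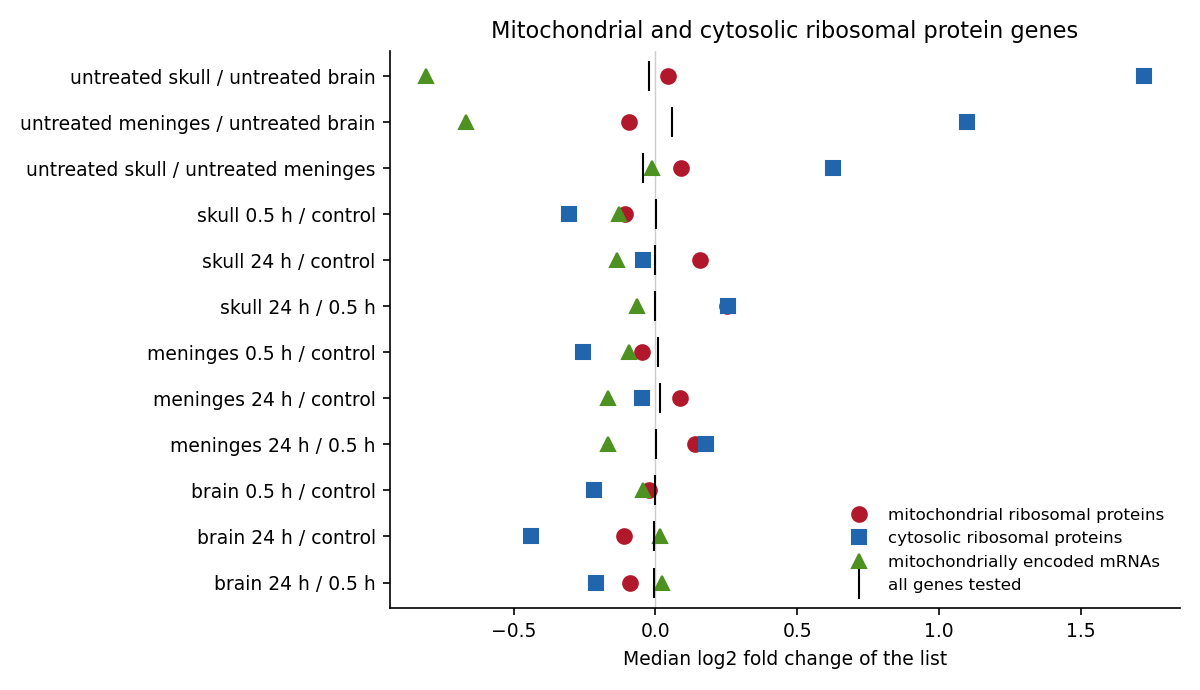
Median log2 fold change (horizontal axis) of the 77 mitochondrial ribosomal protein genes, the cytosolic ribosomal protein genes, the mitochondrially encoded mRNAs and all genes tested, in 12 comparisons. Between untreated skull and brain the cytosolic median is 1.72 and the mitochondrial 0.04; in skull at 24 h against control they are -0.04 and 0.16.

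Some of the 77 genes share a promoter region with a neighbour read in the opposite direction. For 23 of them a coding neighbour starts head to head, and 22 such partners were tested in skull at 24 h against control: 4 were higher and 0 lower, beside 10.6% and 10.4% of all genes tested. Mrps18b and its partner Ppp1r10 (0.65 ± 0.09) were the 1 pair in which both were called. The partners of Mrpl49 (Fau, -0.02 ± 0.15) and Mrpl51 (Ncapd2, 0.33 ± 0.13) were not called. In the other 3 pairs the partner was called and the member was not: Eme1 (0.78) beside Mrpl27, Zfp661 (0.94) beside Mrps5 and Gga3 (0.48) beside Mrps7.

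Between untreated skull and untreated brain, 18 genes were higher in skull and 22 lower (edgeR fit of 27 libraries), where 37.3% of all 21500 genes tested were higher and 38.3% lower. The share of the 77 genes called was thus lower than the background in each direction in this fit, and the median estimate was 0.04. With a correction for GC content and length, given below, more of the 77 genes were called lower and fewer higher, in skull and in meninges against brain. Between untreated meninges and untreated brain 20 were higher and 19 lower (background 36.8% and 33.7%, median -0.09); with RLE scaling in place of TMM the split was 17 higher and 28 lower. Between untreated skull and untreated meninges 11 were higher and 6 lower (background 21.6% and 26.5%, median 0.09). The 11 became 6 without meninges control 1 and 7 without skull control 1, and the 6 lower genes became 4 without meninges control 3. The 85 cytosolic genes, in contrast, had 78 higher and 0 lower in untreated skull against untreated brain (median 1.72), and 70 higher and 2 lower in untreated meninges against untreated brain (median 1.10).

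Mrps28, a small-subunit protein, differed most: it was at 23.7, 24.0 and 23.7 CPM in untreated skull, 15.5, 17.6 and 14.6 CPM in untreated meninges, and 6.60, 5.99 and 5.83 CPM in untreated brain. The 3 tissues did not overlap. Its log2 fold change was 1.95 ± 0.18 for skull against brain (adjusted p = 8.77e-10) and 1.37 ± 0.18 for meninges against brain (adjusted p = 4.01e-07, edgeR). Mrpl52 ran in the same order at 25.2, 21.3 and 29.3 CPM in untreated skull, 14.7, 18.5 and 17.2 CPM in untreated meninges, and 10.6, 7.62 and 5.51 CPM in untreated brain, again without overlap (1.65 ± 0.23 for skull against brain, adjusted p = 6.39e-07). Mrpl33, a large-subunit protein with a bacterial homolog, was at 12.9, 10.8 and 9.03 CPM in untreated skull and 9.45, 7.46 and 8.80 CPM in untreated meninges, which overlapped, against 3.86, 4.04 and 4.50 CPM in untreated brain. Mrpl54 was higher in untreated skull than in untreated brain by 1.10 ± 0.16, and Mrps24 higher in untreated meninges than in untreated brain by 0.87 ± 0.18. The call of Mrps24 was lost with a correction for GC content and length (0.31, adjusted p = 0.0838).

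Mrpl3, a core protein of the large subunit that reaches towards its catalytic centre, had the lowest estimate of skull against brain. It was at 30.3, 31.0 and 37.3 CPM in untreated skull and 33.3, 29.0 and 34.4 CPM in untreated meninges, against 76.7, 77.7 and 71.6 CPM in untreated brain. Both border tissues lay far below brain and overlapped each other (log2 fold change -1.20 ± 0.10 for skull and -1.23 ± 0.10 for meninges, adjusted p = 6.75e-11 and 5.80e-11, edgeR). Mrpl19 was at 14.9, 17.1 and 13.7 CPM in untreated skull, 10.2, 8.61 and 9.80 CPM in untreated meninges and 21.5, 22.3 and 24.3 CPM in untreated brain, with no overlap; 36.0% of its exon bases are shared with Gcfc2 on the opposite strand. Mrpl35 was lower than in brain in both (-0.87 ± 0.15 in skull, -1.02 ± 0.15 in meninges), as were Mrpl58 in skull (-1.07 ± 0.16) and Mrps22 in meninges (-0.85 ± 0.14).

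Mrps6 and Mrpl49 set skull and meninges apart. Mrps6 was at 1.55, 2.72 and 2.39 CPM in untreated skull, against 3.88, 6.92 and 7.13 CPM in untreated meninges, and 4.92, 3.52 and 3.74 CPM in untreated brain (-1.43 ± 0.33 for skull against meninges, adjusted p = 0.00095, edgeR). Of its exon bases, 19.9% are shared with Gm49711 and 10.4% with Slc5a3, both on the same strand, so its counts are uncertain. Mrpl49 was at 20.1, 18.9 and 19.6 CPM in untreated skull, against 36.0, 37.3 and 39.8 CPM in untreated meninges, and 28.1, 29.1 and 26.9 CPM in untreated brain (-0.95 ± 0.11 for skull against meninges, adjusted p = 9.59e-08, edgeR). Here no tissues overlapped. Also lower in skull than in meninges were Mrpl41 (-0.66 ± 0.13) and Mrps33 (-0.59 ± 0.14), and higher were Mrpl57 (0.70 ± 0.14), Mrpl19 (0.68 ± 0.12), Mrpl18 (0.65 ± 0.14) and Mrpl52 (0.59 ± 0.22). The call of Mrpl52 here was lost without skull control 1 or 3 or meninges control 1 or 3 (adjusted p up to 0.133) and with the GC and length correction (adjusted p = 0.0836).

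The differences from brain went with transcript length and, about as closely, with GC content. Across the 77 genes, Pearson's correlation of the log2 fold change with log transcript length was -0.48 for untreated skull against brain (Spearman -0.47) and -0.57 for untreated meninges against brain (Spearman -0.60). It was 0.06 (Spearman 0.02) for untreated skull against meninges. With GC content Spearman's correlation was 0.42 for skull and 0.57 for meninges against brain, and -0.11 for skull against meninges. Over all 20328 genes with a length, Pearson's correlation with length was -0.10 for skull and -0.09 for meninges against brain. Genes are not independent replicates and share libraries and base composition, so these are descriptions. Mrpl52, Mrpl33 and Mrps28, higher outside brain, have short transcripts (418, 478 and 783 bases, against a median of 1316 bases), and Mrpl3, lower outside brain, a long one (3972 bases). Mrpl17 broke the pattern, with the longest transcript named here (7300 bases) and a higher level in untreated skull than in untreated brain. With a correction for GC content and length over all genes, the counts turned to 10 higher and 41 lower for skull against brain and 9 higher and 43 lower for meninges against brain. The all-gene shares under that correction are not given here. The part of RNA quality or library preparation in this was not tested. Between times, Spearman's correlation with length ran from -0.26 to 0.45 over the 9 comparisons within tissues. It was highest for meninges at 0.5 h against control (0.45, and -0.40 with GC content), and was 0.21 for meninges (-0.39 with GC content), 0.29 for brain (-0.29 with GC content) and 0.11 for skull (-0.14 with GC content) at 24 h against control.

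**Figure D5:**
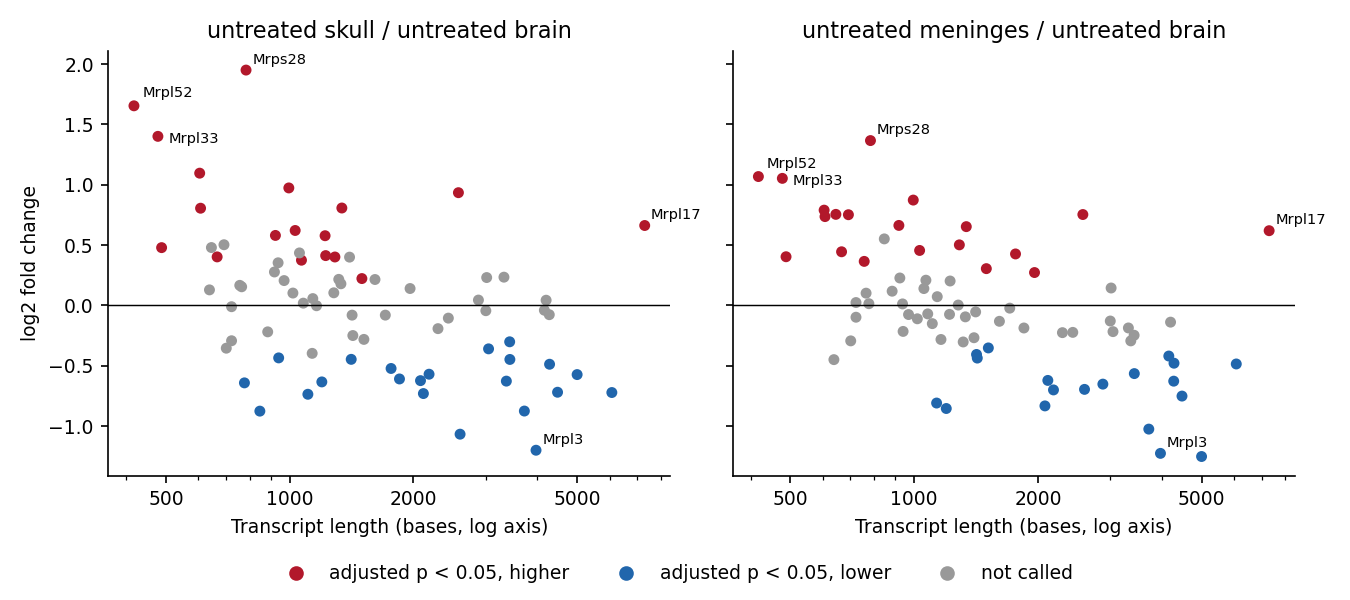
Log2 fold change (vertical axis) of the 77 genes against transcript length in bases (log axis) for untreated skull and untreated meninges, each against untreated brain; colour marks called genes. Short transcripts lie mostly above 0 and long ones mostly below, with Mrpl17 (7300 bases) an exception.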

How the data were processed

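The deposited values are raw counts per gene symbol and library; the authors used HISAT2 2.1.0 and the mm10 build, per the submitters' processing notes, on poly(A)-selected RNA, per the labels' protocols. How reads were counted, and with what annotation and strand setting, is not given in the sources used here. The key that came with the table matched the labels for all 27 columns, and no 2 libraries were alike (the closest pair differed at 24539 genes).

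Counts were tested with edgeR 4.0.16 in R 4.3.3 (quasi-likelihood F test, robust, TMM scaling, filterByExpr with minimum count 10 and minimum total 15). The 9 libraries of a tissue made up 1 fit; untreated tissues and differences between tissues were fitted from all 27. The Benjamini-Hochberg adjustment ran over all genes tested, with a threshold of 0.05. Each SE was worked back from the estimate and its F. The test was tested on simulated data. CPM are counts scaled to a common library size, with totals adjusted by TMM; marker sums use plain totals. Markers and gene lists, like the genes themselves, were chosen with earlier results of these data known.

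Coordinates, exon overlaps, GC content and lengths come from GENCODE M21 (GRCm38), to which 33335 of 37095 symbols (89.9%) matched, with 1 transcript a gene chosen by principal isoform, support level and length. Promoters come from RefSeq (GRCm38.p6). The 5 pseudogene symbols were left out. Mrpl53 was not analysed here.

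Genes named are the 4 largest called changes in each direction, the 4 smallest p-values where fewer than 4 were called, the 3 smallest p-values of each difference between tissues, the 4 highest and lowest per length, and a list by role; other called genes were named after their values were seen. Alternatives were RLE scaling, no filter, DESeq2 1.42.0, replicate numbers as a block, a GC and length correction (spline, 5 degrees of freedom), the block with that correction, and leaving out each library.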

Additional observations from a re-analysis of the deposited data

Results flagged for a closer look

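For 6 genes the change at 24 h against control differed between skull and brain by the test of the difference itself (edgeR, adjusted p under 0.05 over all genes tested). Of all 21500 genes tested, 3.33% differed upward and 3.39% downward. On the log2 scale the difference, skull minus brain, was 0.8656 for Mrps18b, 0.8184 for Mrps2, 0.6861 for Mrps25, 0.5796 for Mrpl49, 0.5433 for Mrpl10 and 0.4573 for Mrpl17. The call of Mrps2 stood without each of the 27 libraries in turn. The others lost it in 2 cases (Mrpl49), 3 (Mrps25), 8 (Mrpl17), 19 (Mrps18b) and 20 (Mrpl10), and Mrps18b and Mrpl17 lost it also without the filter on low counts. In each gene all 3 skull libraries at 24 h were above all 3 skull controls. As the genes were picked by a test on these same libraries, this describes them and is no further support. For Mrps25 the counts are uncertain, since 69.8% of its exon bases are shared with Nr2c2.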

How the results depend on the processing

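Leaving out each library in turn gave 8 to 14 genes higher and 0 to 1 lower for skull at 24 h against control, 4 to 15 higher against 0.5 h, 0 to 1 lower for skull at 0.5 h, and 0 to 1 higher for meninges at 24 h against 0.5 h. It gave 3 to 7 for the 24 h effect of skull minus brain and 0 to 1 for meninges minus brain. Between untreated tissues it gave 17 to 22 higher and 19 to 28 lower for skull against brain, 15 to 22 and 17 to 23 for meninges against brain, and 6 to 12 and 4 to 7 for skull against meninges. The correction for GC content and length gave 10 higher and 41 lower for untreated skull against brain (40 lower with the replicate block), 9 and 43 for meninges against brain, 10 lower for skull against meninges, 1 higher for meninges at 24 h and 1 lower for skull at 0.5 h. DESeq2 called 2 lower in brain at 24 h (as did the fit without a filter), 1 lower in meninges at 0.5 h, 1 higher and 1 lower in meninges at 24 h, 2 lower in skull at 0.5 h and 2 higher for meninges minus brain. The causes were not tested. Of 58 called results named in the text or by the rule, 47 kept their call under each of the 6 alternatives and 34 without each library; none changed sign.

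The labels number the libraries 1 to 3 in each group, but do not say that a number marks 1 animal or batch. Within a tissue, correlations of same-numbered deviations ran from -0.107 to 0.092 in brain, from -0.453 to 0.163 in meninges and from -0.22 to 0.121 in skull, and 4, 1 and 3 libraries of 9 correlated best with their own number. Between tissues at 1 time they ran from -0.145 to 0.175 for skull and meninges, from -0.068 to 0.052 for skull and brain and from -0.036 to 0.108 for meninges and brain, with 4, 2 and 5 of 9 best with their own number. All 3 were best with their own number for skull and meninges at 24 h (0.066, 0.167 and 0.175). The same held for untreated meninges and untreated brain (0.078, 0.108 and 0.025). Whether a number marked 1 animal across tissues cannot be told from these values, and the main fits treated tissues as independent. With the replicate number as a block, Mrpl52 in meninges at 24 h against 0.5 h was no longer called (0 genes, also with the GC and length correction), nor were Mrpl15 in skull at 24 h against control, Mrpl19, Mrpl28 and Mrps14 in skull at 24 h against 0.5 h, or the skull minus brain differences at 24 h of Mrpl10 and Mrpl17.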
